A study of Drosophila melanogaster with 4 samples.

Results

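Chromosome 4 of Drosophila melanogaster was cut into consecutive windows of 1 kb from base 1 of its sequence, and each window was read in the lists of HP1a clusters. The windows were chosen by position alone, and there were 1351 of them, out of 139706 on all sequences that hold a cluster. The last 857 bases of the 1351857 bp sequence made no full window. The clusters come from chromatin immunoprecipitation and sequencing (ChIP-seq) with the antibody wa191, which targets HP1a. The material was nuclei of wild-type Oregon-R larvae of the third instar, and both ChIP libraries and both inputs share that strain, genotype and stage. There were 2 ChIP libraries, replicates 1 and 2, each called against the input of the same number, and a list for the series as a whole. Whole larvae hold many tissues, so a cluster is an average over cells that may differ. The labels do not give the origin of each replicate, and their spread may therefore be that of the technique alone.

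HP1a binds methylated histone H3 through its chromodomain and joins neighbouring nucleosomes through its chromoshadow domain, and it is a main protein of heterochromatin. Chromosome 4 is the smallest autosome of the fly, and its long arm joins properties that are apart elsewhere. It is packaged with HP1a and methylated histone H3 and rarely crosses over, yet it carries active genes at ordinary density. Reporter transgenes placed along it are silenced in a variegated way at some sites and fully expressed at others. The gene table used here lists 80 protein-coding genes on it, among them ci (the effector of Hedgehog signalling), ey and toy (Pax6 genes of eye development), pan (the TCF factor of Wnt signalling) and pho (a Polycomb group protein that binds DNA). The table is on another genome release than the clusters, so no gene was placed in a domain or a gap, and no bases are printed.

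A window counted as covered when at least 50% of its bases lay under clusters. In replicate 1, 1134 of the 1351 windows (83.9%) were covered, against 13.7% of windows over all sequences. In replicate 2, 1183 windows (87.6%) were covered, against 14.7% over all sequences. Both replicates together covered 1124 windows (83.2%), against 12.8% over all sequences, and in the series list the count was 1243 windows (92.0%), against 17.8%. Chromosome 4 was thus covered more densely than the genome as a whole in each list. Most windows were either fully covered or empty. That is largely fixed by the window length, because every cluster was wider than 1 kb (at least 1324 bp in replicate 1 and 1404 bp in replicate 2). Only windows at the edge of a cluster could be partly covered. In replicate 1, 1071 windows were covered to the last base, 177 were empty and 103 were partly covered, and in replicate 2 the numbers were 1122, 127 and 102.

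The replicates gave 94.9% of windows the same state. Another 59 windows were covered in replicate 2 alone and 10 in replicate 1 alone. Over all sequences 1.82% of windows were covered in replicate 2 alone and 0.87% in replicate 1 alone, so replicate 2 had the wider cover there too. On chromosome 4 the shares were 4.37% and 0.740%. The 59 windows had a median value of 0.93 in replicate 2, on the log2 scale described below, and 32 of them were under 1. They formed 30 runs, the longest of which were 1004001 to 1010000, 756001 to 761000, 1093001 to 1098000, 341001 to 344000 and 410001 to 413000. Of all 39 runs covered in 1 replicate alone, 29 touched a stretch covered in both.

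Runs of windows covered in both replicates, called domains here, numbered 42, and 13 of them were at least 40 kb long. These 13 held 834 of the 1124 covered windows, or 74.2%. The median domain was 13 kb long, and 14 domains were at most 5 kb. The longest, of 114 kb, ran from 579001 to 693000. The next were 86 kb from 1134001 to 1220000, 73 kb from 1020001 to 1093000, 71 kb from 933001 to 1004000 and 68 kb from 178001 to 246000. Domains of 61 kb lay at 446001 to 507000 and at 871001 to 932000. The last of the 10 longest were 60 kb from 117001 to 177000, 59 kb from 348001 to 407000 and 49 kb from 816001 to 865000. Cover within each of these 10 was at least 98.3% in both replicates. That follows largely from the definition of a domain as a run of covered windows, since the clusters are wider than a window. The length of a domain depends on how breaks of 1 window are read. When the windows were moved by 500 bp the longest domain was 86 kb, and in replicate 2 read alone it was 169 kb.

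Runs of windows covered in neither replicate, called gaps, numbered 37, and 22 of them were only 1 or 2 kb long. The 10 longest held 106 of the 158 gap windows, or 67.1%. The longest was 21 kb, from 422001 to 443000, with 415 covered bases in replicate 1 and 291 in replicate 2. A gap of 19 kb, from 1115001 to 1134000, had no covered base in replicate 1 and 204 in replicate 2. Gaps of 13 kb lay at 507001 to 520000, which was empty in both replicates, and at 529001 to 542000. The others of the 10 were 413001 to 421000 and 726001 to 734000 (8 kb each), 693001 to 700000 and 742001 to 749000 (7 kb each), 522001 to 528000 (6 kb) and 90001 to 94000 (4 kb). Unmappable bases also read as uncovered, and how many of them each gap holds is unknown.

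**Figure D1:**
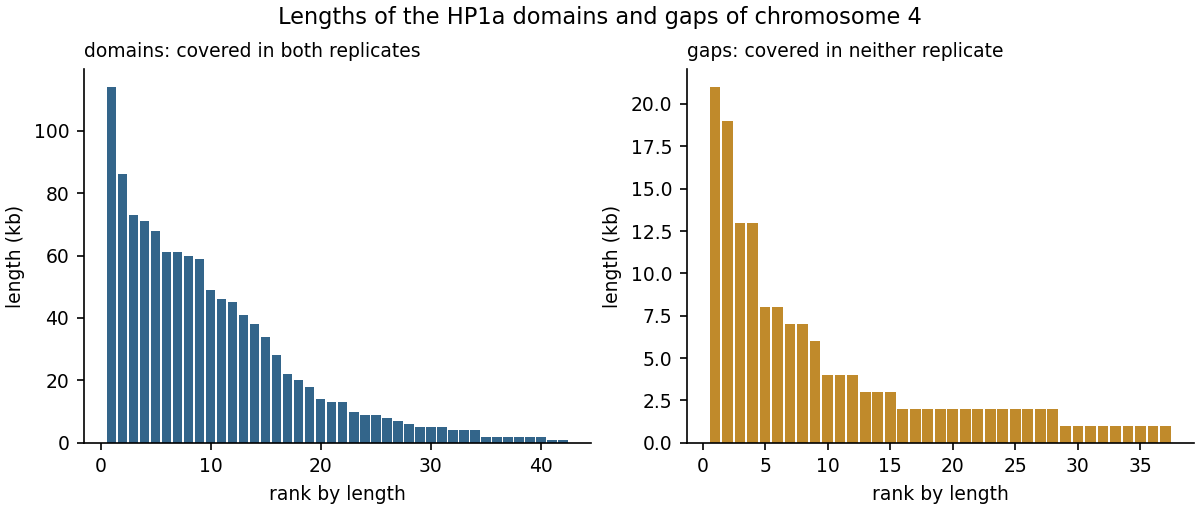
Lengths in kb of the 42 domains (left, windows covered in both replicates) and the 37 gaps (right, windows covered in neither), each ranked from longest to shortest. The domains fall from 114 kb with 13 of at least 40 kb, and the gaps fall from 21 kb with 22 of at most 2 kb.

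The gaps were not spread evenly. Steps of 100 kb held from 0 windows covered in neither replicate (as at 200001 to 300000) to 34 (as at 400001 to 500000). When runs not covered in both replicates were joined across less than 10 kb, 4 large gap zones stood out, with 34 to 40 such windows each. They are called A (407001 to 446000), B (507001 to 548000), C (720001 to 768000) and D (1093001 to 1134000). Together they made up 169 kb, or 12.5% of the windows, and held 116 of the 158 windows covered in neither replicate (73.4%). They also held 90 of the 112 windows that were empty in both (80.4%). Both shares are high by construction, because the zones were built from windows not covered in both replicates. A smaller zone of the same rule, 79001 to 102000, had 10 such windows.

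The clusters beside the large zones differed in strength. The clusters' values are the authors' own, read here as log2 of ChIP over input, and a window takes the value of the cluster that covers most of it. To the left of zone A a cluster of 58392 bp ended at 406643 in replicate 1 with a value of 2.00, and its counterpart in replicate 2 ended at 407062 with 2.01. To the right of zone A both replicates had a narrow, weak cluster, which began at 446080 in replicate 1 (0.76) and at 445950 in replicate 2 (0.75), and then a wide cluster from 449253 (2.05) and 449095 (2.09). That last cluster parts zone A from zone B, and it ended at 506552 in replicate 1 and at 506633 in replicate 2. Right of zone B the next clusters had values of 1.62 in replicate 1 and 1.26 in replicate 2, and left of zone C they had 1.16 and 1.80. The cluster of 1.26 lay 481 bp from one of 1.81 in replicate 2. That of 1.16 was 3563 bp wide and lay 25 bp from one of 1.95 in replicate 1. At the right edge of zone C the wide clusters had 1.98 in both replicates. On the right side of zone D the clusters began at 1134154 (1.99) in replicate 1 and at 1133983 (2.07) in replicate 2. The left side of zone D differed between replicates. The cluster there ended at 1092671 in replicate 1 and at 1101901 in replicate 2, and replicate 1 had a separate weak cluster from 1098145 to 1100050 with a value of 0.62.

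The few clusters inside the 4 large zones were short and weak. Replicate 1 had 11 of them, with values from 0.53 to 0.81 (median 0.66) and widths from 1324 to 4864 bp. Replicate 2 had 13, with values from 0.50 to 0.85 (median 0.63) and widths from 1528 to 5031 bp. Elsewhere on the chromosome the median value was 1.73 over 51 clusters in replicate 1 and 1.85 over 45 clusters in replicate 2. Of the clusters inside, 7 of 11 in replicate 1 and 4 of 13 in replicate 2 overlapped a cluster of the other replicate by at least 1 bp. Elsewhere 51 of 51 and 44 of 45 did so. Nothing is read from these widths and overlaps, because the zones were built from windows not covered in both replicates. That rule places clusters of a single replicate inside them and keeps wide clusters of both out. Zone C differed from A, B and D. It held 6 clusters in each replicate, and 15 of its 48 windows were covered in replicate 1 and 26 in replicate 2. In zone A 1 and 4 of 39 windows were covered, in zone B 3 and 6 of 41, and in zone D 3 and 12 of 41, in replicates 1 and 2 in that order.

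**Figure D2:**
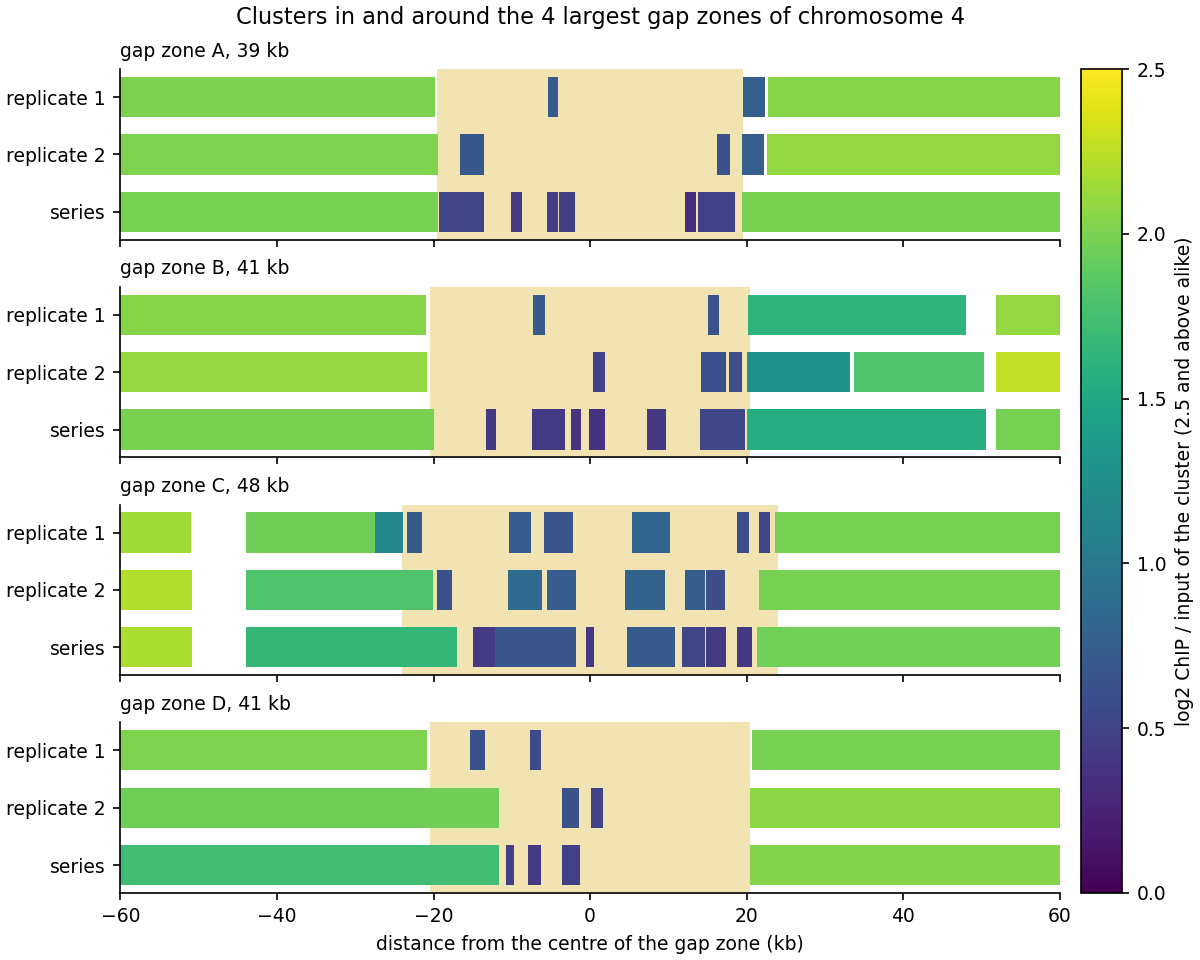
Clusters in and around the 4 large gap zones A to D, as bars along the distance in kb from the centre of each zone (shaded), for ChIP replicates 1 and 2 and the series list, coloured by the cluster's log2 value. Most wide clusters stop near the edges of the zones, some reach several kb into zones C and D, and the clusters that lie wholly inside are short, with values of at most 0.85 in the replicates.

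Most windows with a cluster had values of 1.5 or above. The median window value was 1.98 in replicate 1 (3.95-fold) and 1.93 in replicate 2 (3.80-fold), a mean of 1.96 ± 0.04 (SD, n = 2). The middle 50% of windows ran from 1.63 to 2.05 in replicate 1 and from 1.76 to 2.07 in replicate 2. Windows at 1.5 or above numbered 938 of 1174 windows with a cluster in replicate 1 (79.9%) and 1004 of 1224 in replicate 2 (82.0%). Since all windows under a cluster share its value, this describes clusters weighted by length and shows no change within a cluster. Over the 1124 windows covered in both replicates, the median absolute difference between replicates was 0.08 and the 90th percentile 0.25. Across those windows Pearson's r was 0.894 and the Spearman correlation 0.863, as a description, because neighbouring windows share clusters.

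**Figure D3:**
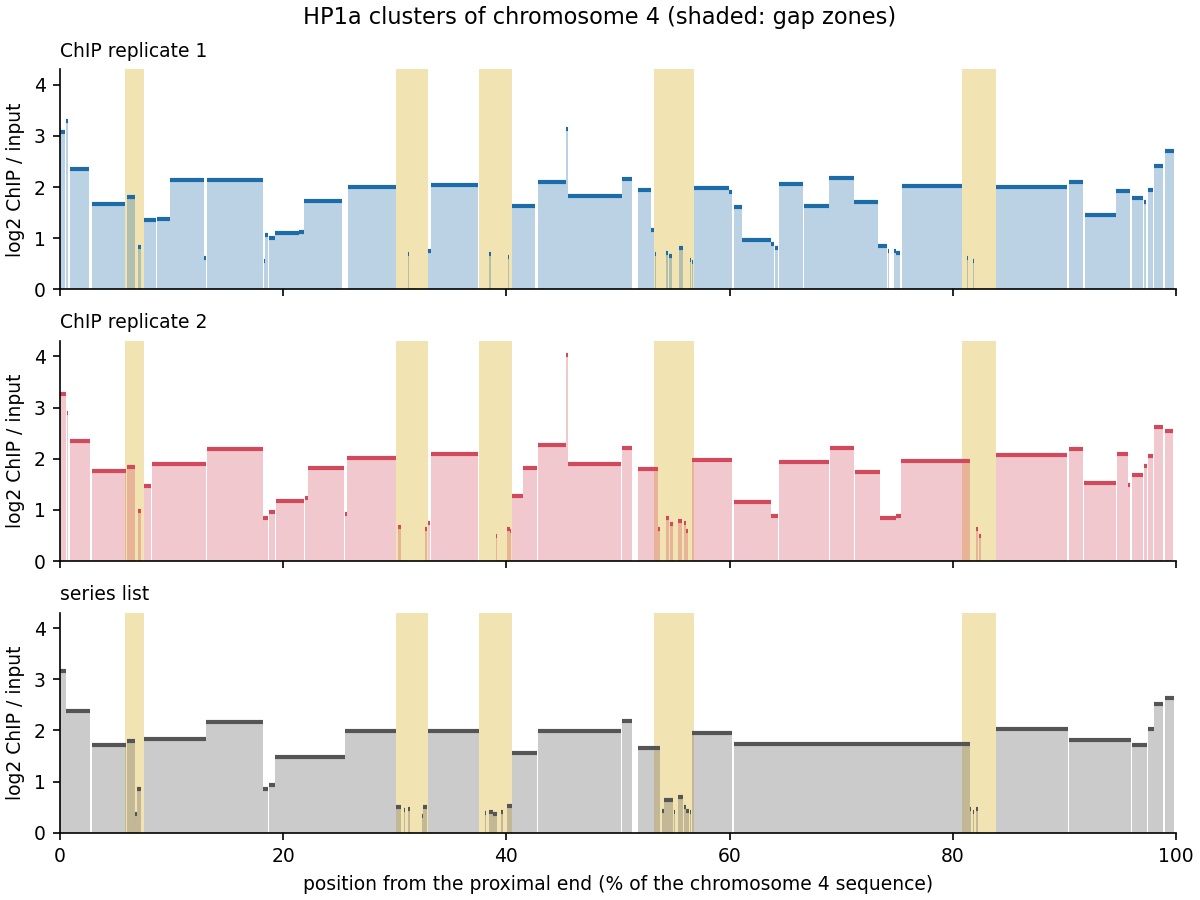
Cluster values (log2 ChIP over input, vertical axis) along chromosome 4 as a percentage of its sequence from the proximal end, for ChIP replicates 1 and 2 and the series list, with the 5 gap zones shaded. Long clusters, each drawn at its single value, lie mostly at 1.5 to 2.2. Between them are the gap zones and weaker stretches that sit at like positions in both replicates, and both ends of the chromosome stand higher.

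Both ends of the sequence carried the strongest domains. At the proximal end, 1 to 5000 had values of 3.07 in replicate 1 and 3.26 in replicate 2, and 13001 to 35000 had 2.36 and 2.35. A short cluster between them, from 7553 to 9892 in replicate 1, had 3.29, and that of replicate 2 had 2.90. At the distal end, 1326001 to 1336000 had 2.41 and 2.62, and 1339001 to 1348000 had 2.71 and 2.55. The fifth strongest domain of at least 5 kb was 178001 to 246000, with 2.14 and 2.18. All 5 strongest domains of at least 5 kb exceeded the chromosome's median value by more than the replicates differed. These domains were chosen for their high values, so nothing is read from that margin.

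The strongest interior cluster was also among the narrowest. It spanned 613390 to 614815 in replicate 1 with a value of 3.13 (8.78-fold) and 613372 to 614775 in replicate 2 with 4.03 (16.3-fold). It was the highest value of chromosome 4 in replicate 2 and was exceeded by 7553 to 9892 in replicate 1. The clusters before it had values of 2.10 in replicate 1 and 2.26 in replicate 2, and those after it 1.82 and 1.89, so in both lists it stood out from its surroundings. It was chosen after its values were seen. In the series list it is not separate, because a cluster of 100833 bp from 579344 to 680176 with a value of 1.98 covers it. The number of reads behind it is unknown.

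Other stretches were covered at a low level. Windows covered in both replicates with values under 1.3 in both numbered 127, or 11.3% of the 1124, and 7 runs of at least 5 kb held 109 of them. The longest, 39 kb from 826001 to 865000, had mean window values of 0.96 in replicate 1 and 1.12 in replicate 2, with 98.7% and 98.8% of its bases covered. The next, 34 kb from 261001 to 295000, had 1.11 and 1.18. Its neighbours were weaker still, 247001 to 252000 with 0.96 and 0.85 and 253001 to 260000 with 1.01 and 0.95. A pair further along, 993001 to 1004000 (0.84 in both) and 1010001 to 1018000 (0.73 and 0.87), is joined in replicate 2 by the 6 windows that replicate 1 lacks. The last, 749001 to 754000 (0.81 and 0.78), is the longest domain inside zone C. These stretches were chosen by their values. Short breaks fell inside some of them, as at 861428 to 861654 in replicate 1 and 861220 to 861692 in replicate 2, and cover was lowest in 749001 to 754000, with 93.4% and 90.8%.

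Some neighbouring clusters with a short break between them had unlike values. Each cluster holds a single value, so how gradual the change is in the underlying signal cannot be read from the lists. Breaks of at most 500 bp between neighbouring clusters numbered 18 in each replicate, and the value stepped by at least 0.5 across 10 of them in replicate 1 and 7 in replicate 2. At 246155 to 246294 in replicate 2 the value was 2.18 before the break and 0.85 after it. At 991294 to 991403 in replicate 1 it was 1.71 before and 0.85 after, and at 992993 to 992997 in replicate 2 it was 1.75 before and 0.84 after, and neither of these breaks recurred within 200 bp in the other replicate. At 448831 to 449252 in replicate 1 it was 0.76 before and 2.05 after, and in replicate 2 it was 0.75 and 2.09. Of the 18 breaks, 9 in each replicate lay within 200 bp of a break of at most 2000 bp in the other. Of those with a step of at least 0.5, 4 of 10 in replicate 1 and 3 of 7 in replicate 2 did so. The median distance from a replicate 1 cluster start to the nearest replicate 2 start was 358 bp, and from an end to the nearest end 601 bp.

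Most narrow clusters were weak. In replicate 1, 19 of the 25 clusters narrower than 5 kb had values under 1, against 1 of the 20 clusters of 20 kb or wider. In replicate 2 these numbers were 15 of 20 and 0 of 19. The median values were 0.75 for the narrow and 1.99 for the wide clusters in replicate 1, and 0.73 and 1.93 in replicate 2. The Spearman correlation of width and value was 0.618 over 62 clusters in replicate 1 and 0.549 over 58 in replicate 2, given as a description across clusters of a library. Narrow clusters of 1.5 or above numbered 4 in replicate 1 and 3 in replicate 2. They included the highest value of the chromosome in each replicate, 3.29 in replicate 1 and 4.03 in replicate 2.

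**Figure D4:**
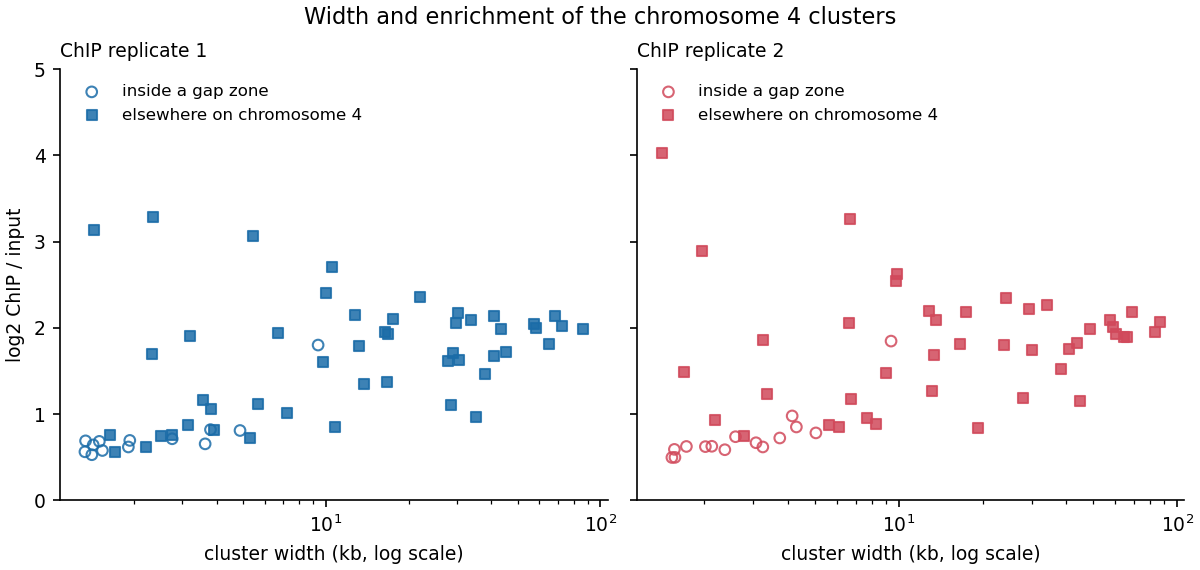
Width (kb, log scale) and value (log2 ChIP over input) of each chromosome 4 cluster in ChIP replicates 1 and 2, with open circles inside the 5 gap zones and filled squares elsewhere. Clusters of 20 kb or wider sit between 0.97 and 2.36 in replicate 1 and between 1.15 and 2.35 in replicate 2, and most clusters narrower than 5 kb sit under 1.

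In steps of 100 kb, the median window value was lowest at 200001 to 300000, with 1.42 in replicate 1 and 1.21 in replicate 2, and at 800001 to 900000, with 1.60 and 1.15. These are the 2 steps that hold the longest weak stretches, and nearly all of their windows were covered, 97 and 99 of 100 in the first and 96 and 97 of 100 in the second. The steps with the most gap windows, 400001 to 500000 and 500001 to 600000 with 34 each, had median values of 2.05 and 2.09 in the first and 1.62 and 1.81 in the second. The 1.62 of replicate 1 was close to the 1.60 of 800001 to 900000. Gap windows with no covered base carry no value and do not enter a median. Over the other 10 steps the mean of the replicates' medians ran from 1.71 to 2.12, the highest being the last 51 windows.

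The series list filled part of the gaps. It covered 51 of the 158 windows covered in neither replicate, and 16 of the 37 gaps over at least 50% of their length. The longest it covered were 726001 to 734000 (74.4%), 522001 to 528000 (70.9%), 90001 to 94000 (84.2%), 407001 to 410000 (93.4%) and 10001 to 12000 (100%). It left 73 windows empty that were empty in both replicates too. Inside the 4 large zones it had 22 clusters with values from 0.33 to 0.69, and 9 of them overlapped no cluster of either replicate. Among the 10 longest gaps, the fewest covered bases in the series list were the 101 in 1115001 to 1134000 and the 180 in 693001 to 700000. The series list also joined what the replicates kept apart. Its widest cluster, of 285579 bp from 816308 to 1101886 with a value of 1.73, lay over 14 clusters of replicate 1 with values from 0.62 to 2.17 and 8 of replicate 2 with values from 0.84 to 2.22.

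Chromosome 4 was set beside 3LHet and 3RHet, assembled pericentric heterochromatin of chromosome 3, with 2555 and 2517 windows. With 2 libraries an exact test cannot go below p = 0.5, so differences are set against the spread of the replicates. A mean of 85.8% ± 2.6 of chromosome 4 windows were covered, against 82.9% ± 2.4 on 3LHet and 76.6% ± 2.1 on 3RHet (SD, n = 2). The difference from 3LHet was 2.84 ± 0.15 percentage points and that from 3RHet 9.19 ± 0.42 when taken within each replicate. Gaps, here runs of uncovered windows within a replicate, numbered 29.2 ± 3.7 per Mb on chromosome 4, against 40.3 ± 2.8 on 3LHet and 41.3 ± 4.5 on 3RHet. Chromosome 4 had fewer in both replicates, with a difference of -11.1 ± 0.9 per Mb from 3LHet and -12.1 ± 0.8 from 3RHet. In the series list the differences were -3.32 and -3.33 per Mb. Unmappable bases read as uncovered on each of these sequences, and their number is unknown. Their part in the differences in cover and gaps was not tested.

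Chromosome 4 had more cover but lower values. Its median window value of 1.96 ± 0.04 lay under the 2.25 ± 0.07 of 3LHet and the 2.13 ± 0.04 of 3RHet (SD, n = 2). Within replicates 1 and 2 the difference was -0.22 and -0.38 from 3LHet and -0.12 and -0.22 from 3RHet. Chromosome 4 also had more windows of low value. Windows with a value under 1 made up 9.35% ± 0.51 of its windows with a cluster, against 0.272% ± 0.071 on 3LHet and 1.16% ± 0.27 on 3RHet. Windows of 2.5 or above made up 2.37% ± 0.58, against 18.2% ± 1.6 and 5.46% ± 0.51. In the series list the share under 1 was 8.31%, against 0.171% and 1.57%. The spread of the middle 50% of windows did not separate the sequences, with 0.36 ± 0.08 on chromosome 4, 0.41 ± 0.02 on 3LHet and 0.36 ± 0.02 on 3RHet.

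**Figure D5:**
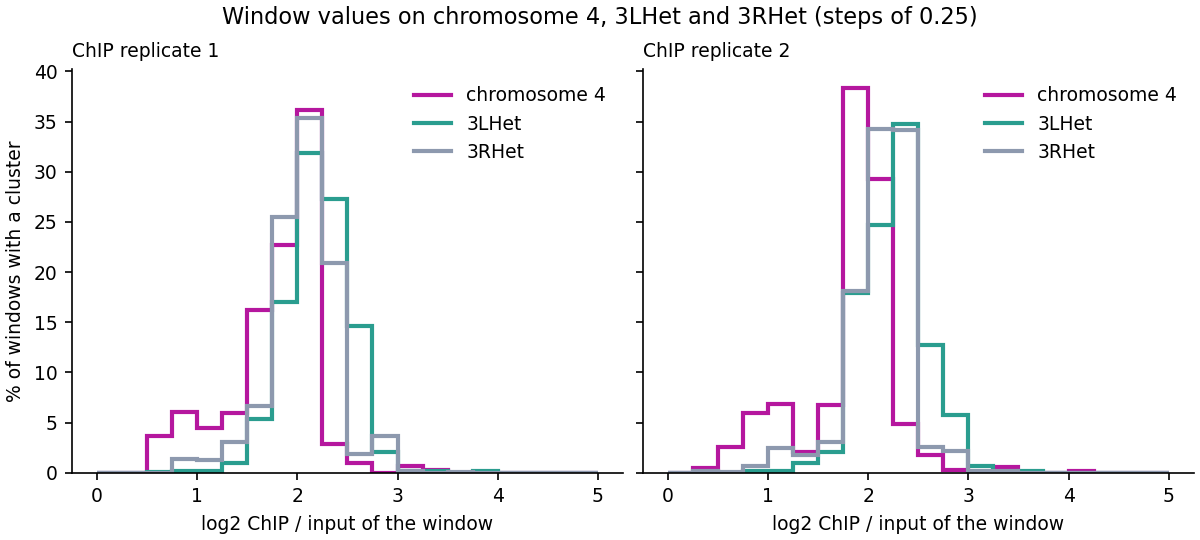
Share of windows with a cluster (%) by window value (log2 ChIP over input, steps of 0.25) on chromosome 4, 3LHet and 3RHet, in ChIP replicates 1 and 2. Chromosome 4 has a shoulder under 1 (9.71% of windows in replicate 1 and 8.99% in replicate 2) against at most 1.35% on the others, and fewer windows of 2.5 or above.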

How the data were processed

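Per the labels, 2 HP1a ChIP libraries and 2 inputs were sequenced, and each input was the background of the ChIP library of its number. The submitters' processing notes name Bowtie 0.12.7. For the cluster caller, its threshold and the making of the series list nothing is stated in the sources used here. Coordinates are FlyBase release 5, per the file headers. The authors deposited a value per cluster, read here as log2 of ChIP over input. The scale was inferred, since values that recur within a list lie apart by log2 of ratios between small integers. Depth is unknown, which allows no counting interval.

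The windows, parts and thresholds were chosen with earlier results of these data known. Gap zones, weak stretches, breaks, width classes and value classes were defined after the values were seen. Regions named are the 10 longest domains and gaps, the 5 longest runs covered in 1 replicate alone, the 5 strongest and weakest domains of at least 5 kb, and the 5 longest gaps that the series list covers. Any gene overlap was left out, because the gene table is on Release 6. The code for windows, values and runs was tested on simulated data and recovered all 200 simulated sequences. The work was done in Python 3.11.15 with numpy 2.4.6, scipy 1.17.1 and matplotlib 3.10.9. Other settings tried were a 90% and a 1 bp cut for a covered window, a grid moved by 500 bp, clusters at or above the median of their list, joining within 500 bp, each replicate by itself and the series list.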

Additional observations from a re-analysis of the deposited data

How the results depend on the processing

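With the upper 50% of each list's clusters by value, 713 windows were covered in both replicates, 463 were empty in both, domains numbered 20 and gaps 21, and the longest gap was 57 kb. That cut removes the weak stretches by construction, so no share of windows under 1 can be given for it. The longest domain, 114 kb as reported, was 85 kb with a 90% cut, 240 kb with any covered base, 86 kb with the grid moved by 500 bp and 311 kb in the series list. Leaving out a replicate gave longest domains of 133 to 169 kb, longest gaps of 27 to 30 kb and 127 to 177 empty windows, since windows are then read in 1 list alone. The median window value was 1.81 in the series list. The difference in gaps per Mb was -21.25 (3LHet) and -17.63 (3RHet) with clusters at or above the median, and -3.32 and -3.33 in the series list. The difference in median value was -0.41 (3LHet) and -0.32 (3RHet) in the series list. Unless stated, the cause was not tested. The differences in gaps per Mb and in median value kept their direction in these alternatives. With clusters at or above the median, however, chromosome 4 had less cover and a longest gap of 57 kb. Fewer gaps per Mb in that setting therefore do not show more continuous cover. The difference in cover from 3LHet and 3RHet was not computed with clusters at or above the median, so its direction there is unknown. No paired analysis was possible because the inputs entered through the cluster lists and no test was made between groups that share replicate numbers.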

Other observations

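The narrowest cluster of chromosome 4 was 1324 bp wide in replicate 1, 1404 bp in replicate 2 and 1001 bp in the series list. Values that another cluster of the same list held exactly were rare on chromosome 4, with 4 of 62 clusters in replicate 1, 3 of 58 in replicate 2 and 1 of 47 in the series list. The value was higher in replicate 2 in 860 of the 1124 windows covered in both replicates, by a median of 0.05, and it differed by over 0.5 in 39 windows.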
